A study of Mus musculus with 24 samples.

Results

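The genes described here are the 177 of the 55471 genes in the count file that start within a 3.5-Mb window of mouse chromosome 13 (mm10), which holds a cluster of zinc finger genes around Zfp455. The window opens at base 65000000, and its first and last genes start at bases 65033058 and 68488998. The window was chosen because earlier results from these data had shown Zfp455 higher in overfed mice on both days, so the overfed-against-control values of its genes are given as a description, and nothing is read from how many passed a test. Hypothalamic RNA was measured by poly-A RNA-sequencing in 24 male C57BL/6J mice of 18 weeks, in 4 groups of 6. ExpOF d14 mice received a liquid diet with added sucrose through a gastric catheter and were killed on day 14, at the end of the overfeeding. ExpOF d14+3 mice were killed on day 17, 3 days after the overfeeding had ended, and were infused with sterile water in between. Control d14 and Control d14+3 mice carried the same catheter and were infused with sterile water. All mice were wild type, housed singly and had free access to chow, so intake of chow was not fixed in any group. For lean mice overfed in this way, the paper reports that chow intake stopped during the overfeeding and stayed low for several days afterwards. The study left out 1 Control d14 mouse, replicate 4, and the values below come from the other 23 libraries unless that library is named.

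Zinc finger genes of this kind encode proteins that read DNA through rows of C2H2 fingers, each a short loop held by a zinc ion. Many also carry a KRAB domain, which recruits the co-repressor TRIM28 and through it the histone methyltransferase SETDB1 and HP1 proteins, so that the bound site is packed into silent chromatin. The genes arose by repeated duplication, lie side by side, and are best known for silencing transposable elements. In this cluster Rsl1 is known for holding down male-specific genes in the liver.

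Of the 177 genes, 89 had no count in any of the 24 libraries, 48 had some counts but did not pass the expression filter, and 40 were tested. Between Zfp369 and Uqcrb, 93 genes over 1596395 bases hold no gene that passed the filter, and 18 of these had a count. By symbol or by fingers in the annotated coding gene, 33 of the 177 were zinc finger genes, and 25 of these were tested. The 8 that did not pass include Rslcan18, with 123 counts over the 23 libraries, Zfp708 with 48 and Gm26965 with 5. The 25 tested zinc finger genes carry from 3 to 30 C2H2 fingers in an open stretch of their annotated transcripts, with a median of 14. Of these, 19 lie on the minus strand and 6 on the plus strand. The other 15 tested genes are neighbours of other kinds, such as Uqcrb, a subunit of mitochondrial complex III, Ptdss1, which makes phosphatidylserine, Mterf3, a mitochondrial transcription factor, and Mfsd14b, a membrane transporter of the major facilitator family.

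Zfp455 (ENSMUSG00000051037) lies at chr13:67194506-67209298 on the plus strand and overlaps no other gene. Its annotated transcript has 4 exons and 2712 bases. Exon 4 holds 2400 of these, including 1154 coding bases, and ends in a 3′ UTR of 1246 bases. Of the 51-base words in its exons, the length of the sequenced reads, 9.63% also occur in exons of another gene, most often in Zfp456 (5.90%). Counts of Zfp455 therefore rest mainly on sequence of its own. Others in the cluster do not have this property. Gm28557 shares 73.5% of its words with other genes and overlaps Zfp708 and Rslcan18 on the same strand, Zfp456 shares 65.2%, mostly with Gm17039, and Zfp58 shares 46.6% with Gm26965. Counts of these genes are uncertain, since reads may have been lost or split between the copies. Of the 40 tested genes, 20 overlap a gene on the opposite strand, 10 of them zinc finger genes such as Zfp738, Zfp85, Zfp748 and Zfp874b. The strand setting of the counting was not given, so reads of these genes and of their partners may be mixed.

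The promoters of many cluster genes carry a common word just upstream of the gene start. Where the word comes from and what it does were not tested. In RefSeq promoters (GRCm38.p6, 250 bases before to 50 after the gene start), the 13 letters TGGGANATGTAGT were found in 16 of the 25 zinc finger genes of the window that had a promoter in the table. On either strand, 0.560% of all 32851 promoters and 5.74% of 383 promoters of Zfp genes elsewhere hold them. The word was picked as the one in most of these promoters, so its frequency among them is a description. In the lines below the capitals mark the word.
Zfp455: aagacttcTGGGATATGTAGTccaagcaac
Rsl1: cagacttcTGGGAGATGTAGTccgcaccac
Zfp456: cagacttcTGGGAGATGTAGTccgcaccac
Zfp429: cagacttcTGGGAGATGTAGTccgcaccgc
Zfp458: ctgacttgTGGGAAATGTAGTcccaacaat
Zfp457: ctgacttgTGGGAAATGTAGTcccatcgcc
Zfp874b: cagacttgTGGGAAATGTAGTctgtagcac
The Zfp455 line lies at chr13:67194441-67194470 on the plus strand, with the word 44 bases before the gene start. The lines of Rsl1 and Zfp456 are identical. The cAMP response element, TGACGTCA, was found in 5 of 26 zinc finger promoters of the window (19.2%), against 1.79% of all promoters, searched on both strands. These are Zfp457, Zfp595, Zfp953, Zfp874a and Zfp874b, and in each the element follows the word after 11 bases. Zfp455 holds no TGACGTCA in this stretch. On the log2 scale the median ExpOF-against-Control difference of the 15 tested zinc finger genes with the word was 0.24 on d14 and 0.12 on d14+3, and that of the 5 tested genes whose promoter lacks it was 0.25 and 0.10.

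Library totals ran from 8928182 to 34848437 counts, and genes of the window took 0.0393% to 0.0513% of them. Levels are given as CPM, counts per 1000000 of the TMM-scaled library. All 15 markers of hypothalamic nuclei, among them Pomc, Agrp, Hcrt and Pmch, passed the filter, as did the 5 neuronal markers. Of the 15, 12 were lower in ExpOF than in Control mice on d14 (median log2 difference -0.21) and 11 on d14+3 (median -0.15). Without adjustment 7 and 3 were lower with p under 0.05 (edgeR), beside 26.7% and 7.11% of all genes in either direction. From d14 to d14+3, 14 of the 15 were lower in controls (median -0.40) and 14 in ExpOF mice (median -0.28). Here 8 and 4 were lower with unadjusted p under 0.05 (edgeR), beside 12.7% and 7.79% of all genes in either direction. On d14 the ExpOF-against-Control medians of the oligodendrocyte, endothelial, mural, ependymal and meninges markers were -0.19, -0.12, -0.17, -0.22 and -0.31. Those of the neuron, astrocyte, oligodendrocyte precursor, microglia and erythrocyte markers were 0.06, 0.02, 0.12, -0.002 and 0.05. On d14+3 the oligodendrocyte, endothelial, mural and ependymal medians were -0.10, 0.01, 0.02 and -0.32. The part of these shifts in the zinc finger values was not tested. The summed level of 3 choroid plexus markers stood apart in Control d14 replicate 5 (2971 CPM), in ExpOF d14+3 replicate 4 (1247 CPM) and in the left-out library (4552 CPM), against 8.11 to 36.3 CPM in the other libraries. In bulk tissue, fewer cells of a type and less RNA per cell cannot be told apart. None of the 60 pairs of libraries within groups agreed within counting noise, with a smallest chi-square per degree of freedom of 2.78.

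Levels between genes were compared as CPM per kilobase of exon. The most abundant tested genes of the window were not zinc finger genes. Uqcrb stood at 66.5 CPM per kb, Ptdss1 at 24.9, Mfsd14b at 7.86, Mterf3 at 5.52 and Gm10037 at 5.40. Among zinc finger genes Zfp87 was highest, at 5.16 CPM per kb, followed by Zfp369 at 3.79 and Zfp874b at 3.01. Zfp455 ranked 16 of 25, at 1.37 CPM per kb. Gm28557 and Zfp456 were lowest, at 0.138 and 0.0856 CPM per kb. The zinc finger genes thus spanned from below 0.1 to above 5 CPM per kb, and all were far under Uqcrb.

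**Figure D1:**
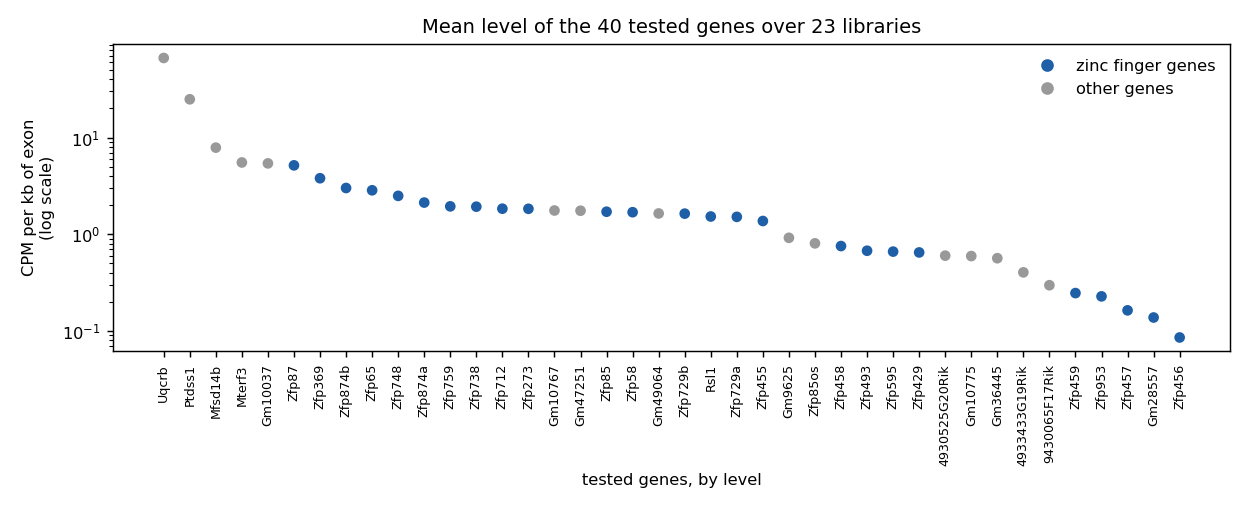
Mean level over 23 libraries of each of the 40 tested genes, in CPM per kb of exon on a log axis, ordered from high to low; blue points are zinc finger genes and grey points other genes. Uqcrb is at 66.5 and Ptdss1 at 24.9, and the highest zinc finger gene, Zfp87, is at 5.16.

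Zfp455 was the member around which the window was drawn. Its level in Control d14 mice was 3.78, 2.90, 3.33, 2.91 and 3.04 CPM in replicates 1, 2, 3, 5 and 6. In ExpOF d14 mice it was 4.14, 4.39, 4.51, 4.59, 4.62 and 4.41 CPM. All overfed mice lay above all controls on d14. In Control d14+3 mice the level was 3.02, 2.97, 2.31, 3.65, 2.76 and 3.42 CPM, and in ExpOF d14+3 mice 3.86, 4.72, 3.75, 4.03, 3.85 and 4.54 CPM. Again the groups did not overlap, although the gap between the highest control and the lowest overfed mouse was small. The group means were 3.19 ± 0.370 (SD, n = 5) against 4.44 ± 0.175 CPM (SD, n = 6) on d14, and 3.02 ± 0.475 against 4.12 ± 0.404 CPM (SD, n = 6 each) on d14+3. The log2 difference of ExpOF to Control was 0.48 (SE 0.110) on d14 and 0.45 (SE 0.106) on d14+3, or 1.39-fold and 1.37-fold. These values come from 41 to 139 counts per library. The left-out Control d14 library had 15 counts of Zfp455, or 1.57 CPM, below every other library.

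The higher level of Zfp455 was seen in both cohorts. These are the libraries by which the window was chosen, so the values below are a description. The labels give a July and a September cohort, each with 3 mice of every group. The left-out library is a September mouse. All September values on d14, here and below, thus rest on Control d14 replicates 1 and 5 alone. On d14 the log2 difference was 0.49 in July and 0.43 in September. On d14+3 it was 0.62 in July and 0.28 in September. With the RNA integrity number (RIN) as a covariate it was 0.50 on d14 and 0.49 on d14+3, and with the left-out library included 0.59 on d14.

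**Figure D2:**
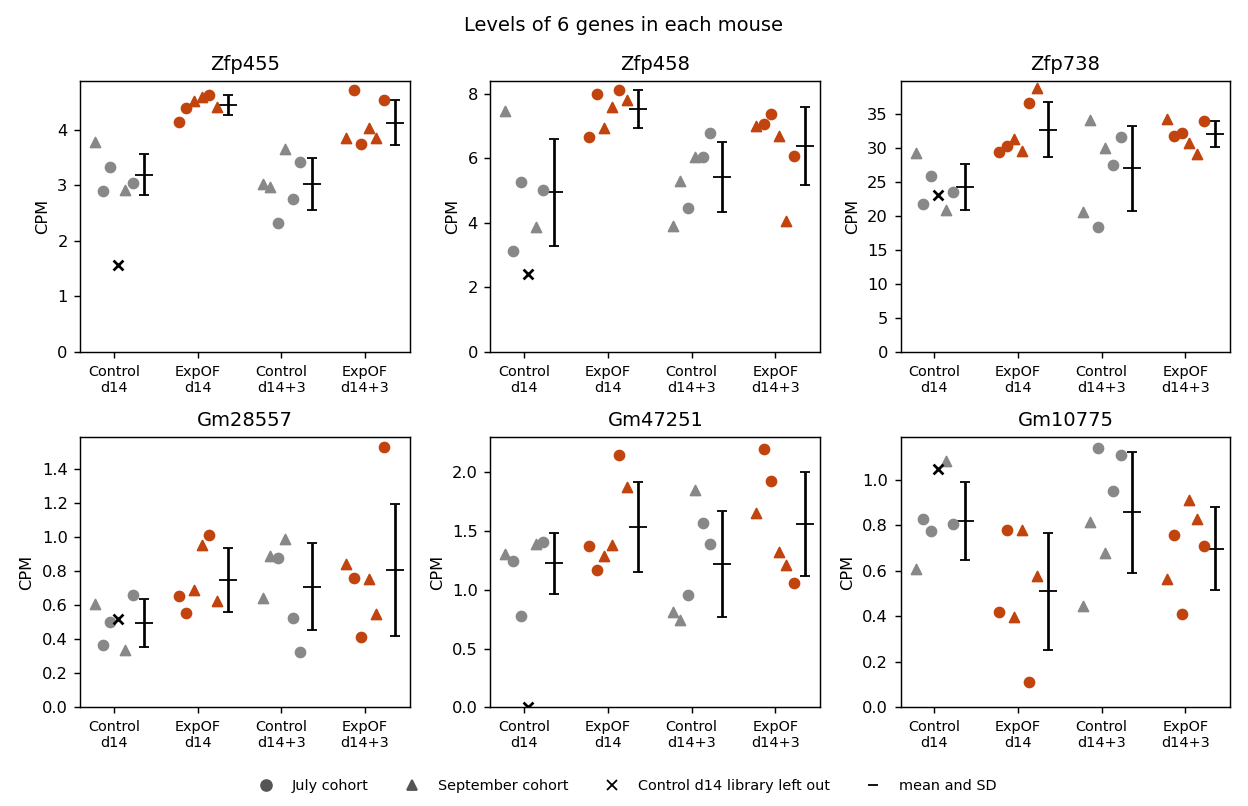
Level in CPM of 6 genes in each mouse by group (circles July, triangles September cohort; grey controls, red ExpOF; bars mean and SD; cross the left-out Control d14 library, not in the mean). Zfp455 is higher in every ExpOF mouse than in every control on both days, and the groups of Gm28557, Gm47251 and Gm10775, which have few counts, overlap.

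Next to Zfp455, the genes with the highest mean difference over both days were Zfp458, Gm28557, Zfp738 and Gm47251. Zfp458, with 20 C2H2 fingers, stood at 7.46, 3.13, 5.27, 3.86 and 5.03 CPM in Control d14 mice and at 6.67, 8.00, 6.95, 7.59, 8.11 and 7.81 CPM in ExpOF d14 mice. Only Control d14 replicate 1 reached into the range of the overfed mice. On d14+3, Zfp458 ran from 3.91 to 6.79 CPM in controls (median 5.67) and from 4.07 to 7.36 CPM in overfed mice (median 6.85), so the groups overlapped. Its log2 difference was 0.60 (SE 0.175) on d14 and 0.24 (SE 0.166) on d14+3.

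Zfp738, a long transcript with 20 fingers and the largest CPM of the zinc finger genes, stood at 29.2, 21.8, 25.8, 20.8 and 23.5 CPM in Control d14 mice. In ExpOF d14 mice it was 29.4, 30.2, 31.3, 29.5, 36.6 and 38.8 CPM, all above the controls, but replicate 1 of the controls lay just under the lowest overfed mouse. On d14+3 the controls spread from 18.4 to 34.03 CPM and the overfed mice from 29.1 to 34.2 CPM. The log2 difference of Zfp738 was 0.43 (SE 0.126) on d14 and 0.25 (SE 0.120) on d14+3.

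Gm28557 and Gm47251 rest on few counts. Gm28557, a zinc finger gene that shares 49.5% of its 51-base words with Zfp708, ran from 0.339 to 0.661 CPM in Control d14 and from 0.555 to 1.01 CPM in ExpOF d14 mice, with a log2 difference of 0.55 (SE 0.308). On d14+3 the difference was 0.15 (SE 0.280). Gm47251, a lincRNA of unknown function, differed by 0.28 (SE 0.241) on d14 and by 0.38 (SE 0.229) on d14+3, and its groups overlapped on both days. Without Control d14 replicate 3 its d14 difference was 0.15.

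At the other end were Gm10775, Uqcrb, 9430065F17Rik, Gm9625 and Gm10037, none of which is a zinc finger gene. Gm10775 ran from 0.606 to 1.08 CPM in Control d14 and from 0.113 to 0.778 CPM in ExpOF d14 mice, the lowest value being a single count in ExpOF d14 replicate 5. Its log2 difference was -0.63 (SE 0.287) on d14 and -0.29 (SE 0.267) on d14+3. Uqcrb, whose exons share 24.97% of their 51-base words with other genes, most often Gm16089, stood at 63.8 ± 11.8 CPM (SD, n = 5) in Control d14 and 55.4 ± 2.94 CPM (SD, n = 6) in ExpOF d14 mice. On d14+3 it was 61.4 ± 6.52 against 53.2 ± 6.28 CPM (SD, n = 6 each). The log2 difference of Uqcrb was -0.21 on both days (SE 0.0990 and 0.0946), and the groups overlapped. On d14 it was -0.12 without Control d14 replicate 6 and -0.69 with all 24 libraries, and on d14+3 the July mice alone gave -0.37 and the September mice -0.06. Uqcrb also overlaps Gm10767 on the opposite strand. The left-out library had 229.2 CPM of Uqcrb. For 9430065F17Rik, an antisense transcript of Zfp748 whose reads may be mixed with those of that gene, the log2 difference was -0.20 on d14 (-0.80 in July and 0.50 in September) and -0.18 on d14+3, for the processed pseudogene Gm9625 -0.04 and -0.20, and for Gm10037 -0.07 and -0.09.

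Among the abundant neighbours, Ptdss1 was 107.7 ± 5.75 CPM (SD, n = 5) in Control d14 and 105.7 ± 5.16 CPM (SD, n = 6) in ExpOF d14 mice, with log2 differences of -0.03 (SE 0.0477) on d14 and 0.07 (SE 0.0455) on d14+3. Mterf3 differed by 0.11 and 0.05 on the log2 scale, and Mfsd14b, the first tested gene of the window, by 0.27 and 0.09.

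Of the 25 tested zinc finger genes, 23 had a higher fitted level in ExpOF than in Control mice on d14 and 22 on d14+3. Their median log2 difference was 0.25 on d14 and 0.12 on d14+3. Over all 18992 genes tested, 46.6% were higher on d14 and 52.1% on d14+3, with medians of -0.02 and 0.01. Of the 25, 20 were higher on both days and 0 were lower on both. On d14 the exceptions were Zfp457, at -0.14 (SE 0.319), and Zfp87, the most abundant zinc finger gene, at -0.04 (SE 0.0852). Within the July cohort the median of the 25 genes was 0.23 on d14 and 0.14 on d14+3, and within the September cohort 0.30 and 0.13. In July 22 of the 25 were higher on d14 and 21 on d14+3, and in September 22 and 17. The September d14 values again rest on Control d14 replicates 1 and 5 alone. Among the 15 other tested genes of the window, 9 were higher on d14 and 10 on d14+3, with medians of 0.11 and 0.07.

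**Figure D3:**
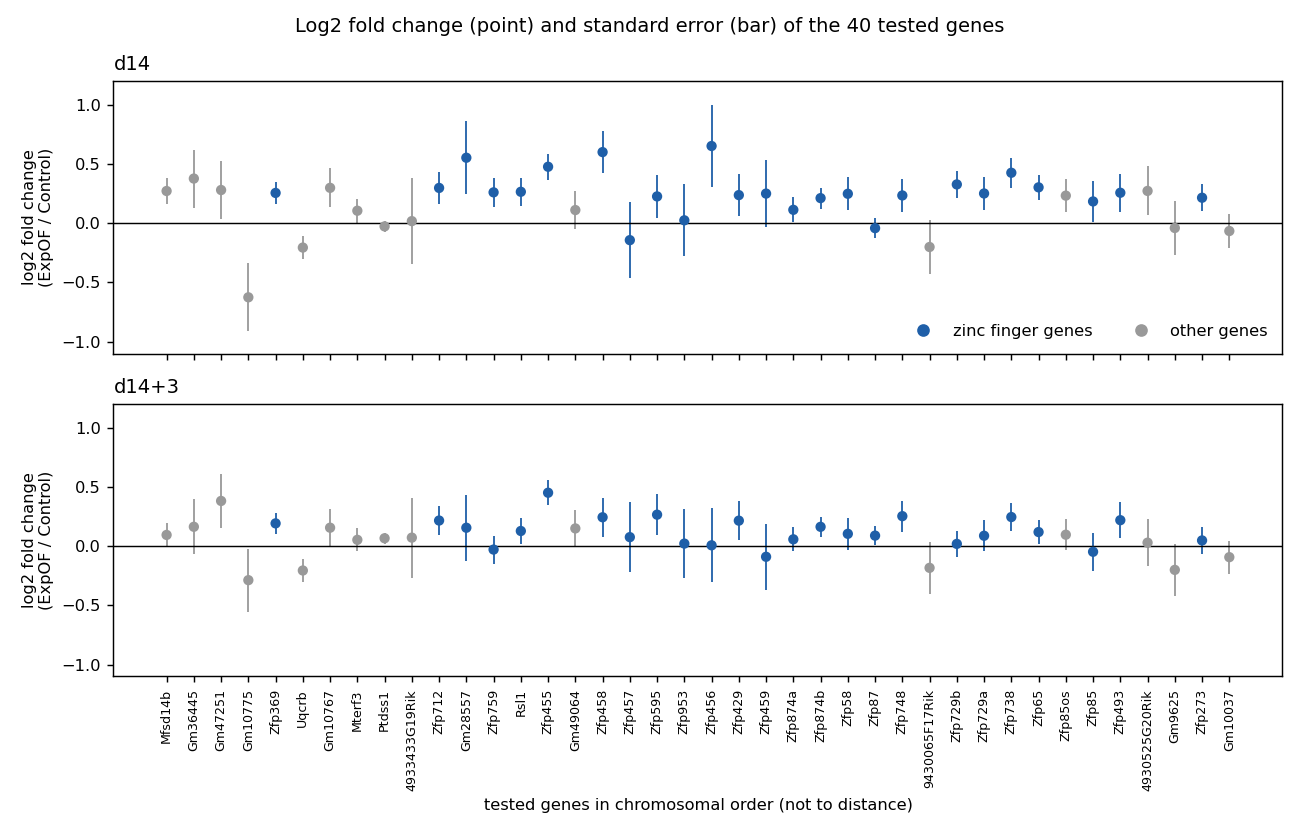
Log2 difference of ExpOF to Control (point) with its standard error (bar) for the 40 tested genes in chromosomal order, on d14 above and on d14+3 below; blue points are zinc finger genes and grey points other genes. On d14, 23 of the 25 blue points lie above 0, and on d14+3 22 do.

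By edgeR's quasi-likelihood test with Benjamini-Hochberg adjustment, 0 of the 40 genes had an adjusted p under 0.05 on either day, against 0.00527% of all genes on d14 (Npy alone) and 0% on d14+3. Without adjustment, 13 of the 40 were under 0.05 on d14, 11 of them higher and 2 lower, against 26.7% of all genes. On d14+3 there were 3, against 7.11%. ExpOF lay above Control without overlap on d14 for Zfp369, Zfp455, Zfp729b and Zfp738, against 1.54% of all genes. On d14+3 this held for Zfp455, against 0.121%. ExpOF lay below Control without overlap for 0 of the 40 genes on either day, against 0.958% of all genes on d14 and 0.3% on d14+3. Since the window was chosen by these comparisons, nothing is read from the counts.

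The number of edgeR calls on d14 hung on Control d14 replicate 1. Its summed zinc finger level was the highest of its group, and the part of that in the calls was not tested. This library also had 94.8 CPM of Gh, growth hormone and the one tested marker of the pituitary, against at most 20.5 CPM in every other library, and the part of this in the calls was not tested. Without it edgeR called 4220 of 19206 genes on d14 (22%), and 6 of 42 genes of the window. These were Zfp369, Zfp738, Zfp455, Zfp458, Zfp729b and Zfp65, all higher in ExpOF mice. DESeq2 with all 23 libraries called 167 of 16706 genes (1%) and 1 of 38 genes of the window, Zfp455.

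The zinc finger genes were also added up for each mouse. The 25 genes together took 205.0, 179.8, 188.8, 154.4 and 178.9 CPM in Control d14 mice and 216.3, 204.1, 210.5, 223.0, 228.4 and 221.8 CPM in ExpOF d14 mice. Only Control d14 replicate 1 lay within the range of the overfed mice, just over the lowest of them. On d14+3 the sum was 155.6, 201.7, 164.9, 215.9, 198.2 and 216.0 CPM in controls and 215.3, 225.3, 238.3, 209.2, 188.7 and 199.98 CPM in overfed mice, so the groups overlapped widely. Control d14 replicate 5, the library with choroid plexus markers, had the lowest sum. Without it the median log2 difference of the 25 genes on d14 was 0.20, with 22 higher. Without ExpOF d14+3 replicate 4 the d14+3 median was 0.11, with 21 higher. The part of these markers in the result was not tested.

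Zinc finger genes outside the window were compared in the same way. Of 347 tested Zfp genes elsewhere in the genome, 239 had a higher and 108 a lower fitted level in ExpOF mice on d14, and 241 a higher and 106 a lower one on d14+3, with median log2 differences of 0.12 and 0.06. By edgeR's quasi-likelihood test 0 of them had an adjusted p under 0.05 on either day, beside 0.00527% and 0% of all genes. Without adjustment 96 were higher and 17 lower on d14 with p under 0.05, and 13 higher and 6 lower on d14+3. Over all 18992 genes these were 2492 higher and 2577 lower on d14, and 552 higher and 798 lower on d14+3. Together the 347 genes took from 7501 to 8662 CPM in Control d14 mice and from 8617 to 9036 CPM in ExpOF d14 mice. The window of equal length before the cluster had medians of 0.21 and 0.10 over 28 tested genes, and the one after it medians of -0.01 and -0.03 over 15. The last tested gene before the cluster window, Cntnap3, differed by 0.50 on d14 and 0.07 on d14+3, and Mtrr, the first after it, by 0.19 and 0.08, beside 0.27 and 0.09 for Mfsd14b and -0.07 and -0.09 for Gm10037 just inside. The difference between these lists was not tested.

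**Figure D4:**
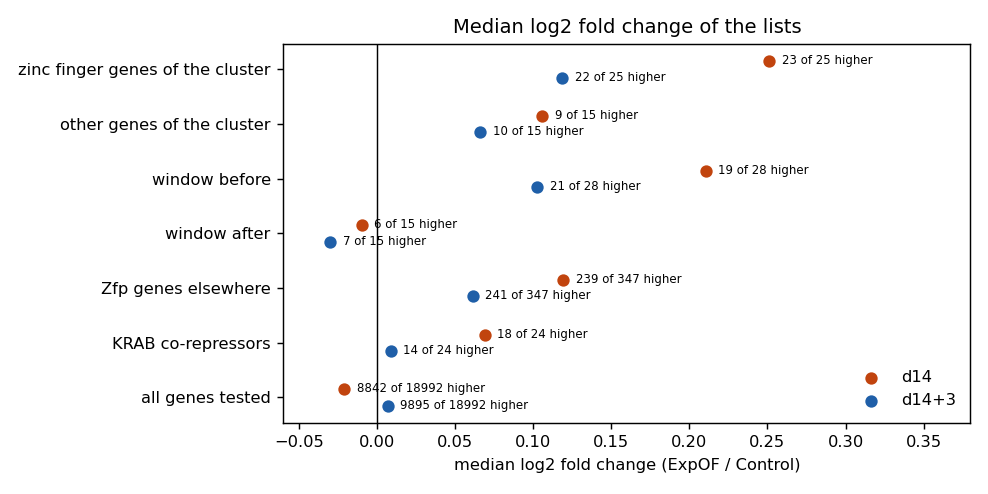
Median log2 difference of ExpOF to Control on d14 (red) and d14+3 (blue) for the zinc finger genes and other genes of the cluster, the windows before and after it, Zfp genes elsewhere, 24 KRAB co-repressor genes and all genes tested; the labels give how many were higher. The zinc finger genes of the cluster have the highest median on both days, 0.25 and 0.12, the window before them lies at 0.21 and 0.10, and Zfp genes elsewhere lie at 0.12 and 0.06.

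The partners through which KRAB zinc finger proteins act were measured too. All 24 listed co-repressor genes passed the filter, and 0 of them had an adjusted p under 0.05 in edgeR's quasi-likelihood test on either day, beside 0.00527% of all genes on d14 and 0% on d14+3. On d14, 18 of 24 had a higher fitted level in ExpOF mice, beside 46.6% of all genes, with a median log2 difference of 0.07. On d14+3 these were 14 of 24, beside 52.1% of all genes, with a median of 0.01. Without adjustment 8 of 24 were under 0.05 on d14 (33.3%) and 2 on d14+3 (8.33%), beside 26.7% and 7.11% of all genes. Trim28, which encodes the co-repressor that KRAB domains bind, differed by -0.19 (SE 0.0746, adjusted p = 0.145, edgeR) on d14 and by -0.02 on d14+3. Setdb1, the methyltransferase, differed by 0.16 (SE 0.0577, adjusted p = 0.137, edgeR) on d14, and Fam208a, a subunit of the HUSH silencing complex, by 0.39 on d14 and 0.34 on d14+3 (SE 0.151 and 0.144). Of 5 genes that RSL proteins hold down in the liver, only C4a passed the filter, at 3.86 ± 0.389 CPM (SD, n = 5) in Control d14 and 3.99 ± 0.643 CPM (SD, n = 6) in ExpOF d14 mice. Rsl1 itself was 3.46 ± 0.458 against 4.15 ± 0.280 CPM on d14 and 4.04 ± 0.767 against 4.41 ± 0.331 CPM on d14+3. Mup1, Mup3, Mup20 and Cyp2d9 had from 2 to 70 counts over the 23 libraries.

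The comparisons that did not choose the window could be tested. Between the days, 0 of the 40 genes had an adjusted p under 0.05 in controls, against 1.15% of all genes, and 0 in ExpOF mice, against 0%. Without adjustment 1 gene was under 0.05 in each, Gm49064 in controls (log2 -0.34 on d14+3, adjusted p = 0.381, edgeR) and Zfp729b in ExpOF mice (log2 -0.23, adjusted p = 0.632, edgeR), against 12.7% and 7.79% of all genes. Zfp455 differed between the days by -0.08 (SE 0.111, adjusted p = 0.838, edgeR) in controls and by -0.11 (SE 0.104, adjusted p = 0.883, edgeR) in ExpOF mice. From d14 to d14+3, 19 of the 25 zinc finger genes had a higher fitted level in controls (median 0.10), beside 48.0% of all genes and 220 of the 347 Zfp genes elsewhere. In ExpOF mice 17 of 25 had a lower one (median -0.04), as did 219 of the 347, while 51.3% of all genes were higher. The difference between these lists was not tested. These comparisons share the libraries of the diet comparisons. Most markers of hypothalamic nuclei were also lower on d14+3 than on d14, and the part of this in the day values was not tested.

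Neither cohort nor extraction round was linked to a called gene. In the September against the July cohort 0 of 40 genes had an adjusted p under 0.05, against 0% of all genes, and 1 was under 0.05 unadjusted, Zfp457 (log2 -0.59), against 3.88%. Zfp455 differed by 0.04 (SE 0.0772). Of the 25 zinc finger genes, 19 had a lower fitted level in September (median -0.04), as did 239 of the 347 Zfp genes elsewhere (median -0.03). Over all genes 47.8% were higher. The difference between these lists was not tested. Between extraction rounds 0 of 40 were under 0.05 unadjusted, against 4.08% of all genes, and Zfp455 differed by 0.04 (SE 0.0789).

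Fitted levels of most zinc finger genes were lower at higher RNA integrity. The RIN was 9.75 ± 0.138 (SD, n = 6) in ExpOF d14, 9.43 ± 0.450 in ExpOF d14+3 and 8.62 ± 1.09 in Control d14+3 mice (SD, n = 6 each), and it ran from 8.0 to 10.0 in Control d14 mice. Per RIN unit, within groups, 22 of the 25 zinc finger genes had a lower fitted level, with a median of -0.05 on the log2 scale. Over all genes 49.3% were higher. Of the 347 tested Zfp genes elsewhere, 235 also had a lower fitted level, with a median of -0.04. In the window before the cluster 19 of 28 tested genes were lower, and in the one after it 7 of 15. The difference between these lists was not tested. Of the 40 genes 0 had an adjusted p under 0.05, against 0% of all genes, and 5 were under 0.05 unadjusted, against 6.42%. These were Gm47251 (log2 -0.29 per unit), Mterf3, Zfp595 and Zfp493, which were lower, and Gm28557, which was higher (log2 0.33 per unit). For Zfp455 the value was -0.05 per unit (SE 0.0598, adjusted p = 0.788, edgeR). With RIN as a covariate, the median diet difference of the 25 genes was 0.29 on d14 and 0.14 on d14+3.

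**Figure D5:**
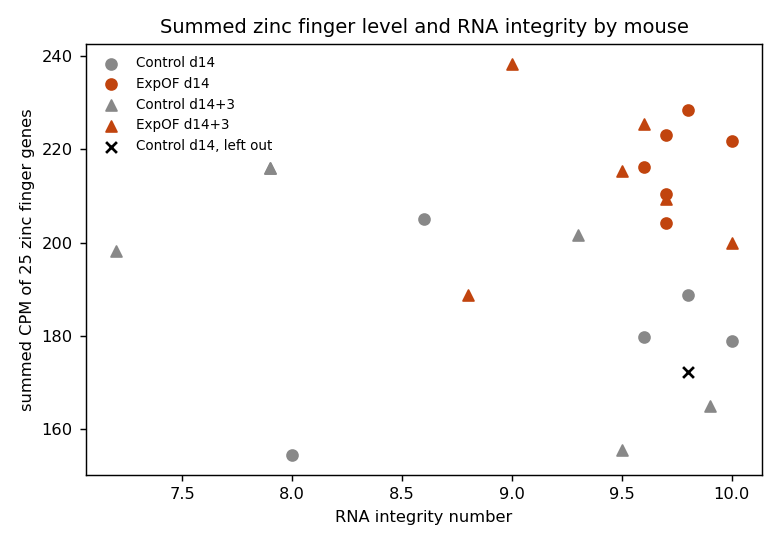
Summed level of the 25 zinc finger genes in CPM (vertical axis) against the RNA integrity number (horizontal axis) for each mouse, with grey controls, red ExpOF, circles d14, triangles d14+3 and a cross for the left-out library. The Control d14+3 mice spread from 155.6 to 216.0 CPM, with 2 of them at the same point, while the ExpOF d14 mice lie between 204.1 and 228.4 CPM at RIN values near 9.75.

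Within groups many of the zinc finger genes tended to vary together across mice. After the group means were removed, the median Pearson correlation over the 300 pairs of zinc finger genes was 0.325 across 23 libraries (-0.572 to 0.863). Over the 78 pairs of the 13 genes with at least 5 CPM it was 0.5257 (-0.0955 to 0.863). Over all pairs of tested genes the median was -0.0008. These values describe points that share library, depth and RNA quality. The same correlation was not taken for Zfp genes elsewhere, so whether it is particular to the cluster was not tested. The closest pair was Zfp748 and Zfp65 (0.863), followed by Zfp458 and Zfp729a (0.835). Zfp455 was most like Zfp738 (0.626), and its median with the other 24 was 0.322.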

How the data were processed

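Hypothalamic RNA of 24 mice was sequenced as stranded poly-A libraries with paired 51-base reads. Alignment (STAR 2.7.3a, mm10) and counting (featureCounts 1.6.4, GENCODE vM22) were done by the authors, and the strand setting is not given in the sources used here. The deposited values are raw counts per gene. Of the 55471 genes, 55230 were given a symbol through GENCODE vM21. Replicate 4 is the Control d14 library whose removal gives the study's mean expression values.

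Tests used edgeR 4.0.16 under R 4.3.3 (TMM, filterByExpr with a minimum count of 10 and total of 15, robust quasi-likelihood F-test over the 4 groups, Benjamini-Hochberg over 18992 genes, threshold 0.05). Cohort, extraction round and RIN were added as terms for their own tests. Log2 CPM per library used a prior count of 2, and log2 differences came from the edgeR fit with its default prior count. C2H2 fingers (at least 3 for a zinc finger gene) were matched in annotated transcripts. The fit was tested on simulated counts. Alternatives were DESeq2 1.42.0, its size factors, other filters, all 24 libraries, single cohorts, covariates, a replicate block and leaving out libraries. The members and lists were chosen with earlier results of these data known.

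Named were Zfp455, the 5 tested genes with the highest and the 5 with the lowest mean difference over both days, the 5 with the most CPM per kb, genes called in a comparison not used to choose the window, and, after their values were seen, single genes at an edge, exception or count of 5 or fewer. Totals per library bound the counting error, which is largest for genes with under 1 CPM. No column of other samples was used.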

Additional observations from a re-analysis of the deposited data

Results flagged for a closer look

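In groups of 5 or 6 mice, 3 of 52 gene-by-group sets held a mouse far from the others, and chance gives about 1 in 20. Gm47251 was 0.775 CPM in Control d14 replicate 3, with the next mouse at 1.24 CPM. Uqcrb was 74.3 CPM in Control d14+3 replicate 3, with the next at 61.1 CPM. 9430065F17Rik was 0.714 CPM in Control d14+3 replicate 5, with the next at 0.856 CPM.

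In the Control d14 library left out by the study, 4 of the named genes were above all 11 other control libraries. Uqcrb was 229.2 CPM (highest other control 78.7), Gm10037 16.7 CPM (8.42), 9430065F17Rik 2.19 CPM (1.21) and Gm9625 1.67 CPM (1.26). Of the 40 tested genes, 8 were above and 19 below all other controls in this library, beside 35.1% and 41.4% of the 18992 genes tested.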

How the results depend on the processing

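Calls among the genes of the window were 0 in every comparison and alternative run, other than on d14 with DESeq2, which called 1, and without single libraries, which gave 0 to 6 (6 without Control d14 replicate 1, 0 without any other). The median log2 difference of the tested genes was 0.24 on d14 (0.22 to 0.28 over 11 alternatives, 0.18 to 0.30 without single libraries) and 0.09 on d14+3 (0.04 in the September cohort alone to 0.14 in July alone, and 0.06 to 0.15 without single libraries, 0.15 being without ExpOF d14+3 replicate 5), above 0 throughout. Zfp455 stayed above 0 in each, from 0.43 to 0.59 on d14 and from 0.28 to 0.62 on d14+3. 9430065F17Rik, Gm9625, Gm10037 and Ptdss1 on d14, and Gm28557, Gm10775, Mfsd14b and Mterf3 on d14+3, changed sign in at least 1 alternative. Replicate numbers did not pair the mice (correlations of -0.255 to 0.364, 6 of 33 over 0.1). The replicate block called 0 genes of the window in each comparison it could be fitted to, and could not be fitted with extraction round. Genes under 1 CPM are limited by counting error.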
